A study of Mus musculus with 20 samples.

Results

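The Dlx and Msx homeobox genes were followed through every chromatin and RNA library of a study of the histone methyltransferase Kmt2b in mouse germline stem cells (GSCs), which are cultured spermatogonial stem cells. The 8 genes, Dlx1 to Dlx6, Msx1 and Msx2, were chosen by their family and symbol, with the H3K4me3, H3K27me3 and RNA values of these libraries already known, and all 8 were found in both deposited tables, among 25965 genes with a chromatin window and 25067 with RNA. Knockout cells, called FC/FC, were Kmt2b F/F; Rosa26-CreERT2 GSCs given 4-hydroxytamoxifen (4-OHT) at 1 µM, and control cells, called F/F, were GSCs of that same genotype given ethanol instead. Both genotypes were kept on fibroblast feeders and harvested 6 days after treatment. Loss of Kmt2b and exposure to 4-OHT therefore cannot be told apart. Each genotype had 2 libraries of H3K4me3, H3K27me3, input DNA and RNA, which the series describes as duplicate cell lines without tying a replicate number to a line. F/F cells alone had 2 libraries of H3K9me3 with 2 further inputs, for which neither the treatment nor the harvest day is given.

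Dlx genes encode homeodomain activators that pattern the forebrain, the jaws, the limbs and the skeleton, and Msx genes encode related homeodomain repressors of the same embryonic tissues. Mammalian Dlx genes lie as tail-to-tail pairs, and the members of a pair share enhancers in the stretch between them. In cells that do not use them, the promoters of such genes often carry H3K4me3, the mark that Kmt2b and its relatives write, together with H3K27me3, the mark of Polycomb repression. In the gonad, Msx1 and Msx2 are known to act in the entry of female germ cells into meiosis.

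In build mm10 the start of Dlx1 lies 18.6 kb from that of Dlx2 on chromosome 2, the start of Dlx3 26.2 kb from that of Dlx4 on chromosome 11, and the start of Dlx6 18.8 kb from that of Dlx5 on chromosome 6. Msx1 on chromosome 5 and Msx2 on chromosome 13 lie alone. The table has 1 window per gene, whose size is not given. In all 15 pairs of genes that share an annotated 5′ end but not the 3′ end, both rows held equal reads in all 16 chromatin libraries, and this was so in 0 of the 23 pairs that share the 3′ end only. The windows were thus placed at annotated starts.

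RefSeq promoters of build GRCm38.p6 were matched for 4 of the 8 genes, and the 250 bases before the start are shown because these are CpG-rich starts of the kind that carry H3K4me3. They are Dlx1 at chr2:71529195-71529444 on the plus strand, Dlx2 at chr2:71546755-71547004 on the minus strand, Msx1 at chr5:37824586-37824835 on the minus strand and Msx2 at chr13:53472781-53473030 on the minus strand. Capitals mark CG dinucleotides, and each sequence reads 5′ to 3′ towards the gene.
Dlx1: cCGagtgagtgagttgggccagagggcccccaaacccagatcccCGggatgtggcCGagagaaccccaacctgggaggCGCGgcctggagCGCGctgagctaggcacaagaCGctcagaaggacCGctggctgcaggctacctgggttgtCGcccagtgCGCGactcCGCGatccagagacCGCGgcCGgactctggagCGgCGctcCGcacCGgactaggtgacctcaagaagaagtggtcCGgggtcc
Dlx2: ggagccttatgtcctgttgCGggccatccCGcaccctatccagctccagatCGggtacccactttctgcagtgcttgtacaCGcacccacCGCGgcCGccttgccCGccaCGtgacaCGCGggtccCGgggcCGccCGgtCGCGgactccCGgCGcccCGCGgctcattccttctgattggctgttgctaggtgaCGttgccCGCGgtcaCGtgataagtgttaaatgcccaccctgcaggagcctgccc
Msx1: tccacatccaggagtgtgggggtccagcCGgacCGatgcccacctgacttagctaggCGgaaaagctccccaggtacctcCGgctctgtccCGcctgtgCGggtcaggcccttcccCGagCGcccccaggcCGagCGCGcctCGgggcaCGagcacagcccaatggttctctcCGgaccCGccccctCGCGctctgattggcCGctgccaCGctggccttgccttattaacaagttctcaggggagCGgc
Msx2: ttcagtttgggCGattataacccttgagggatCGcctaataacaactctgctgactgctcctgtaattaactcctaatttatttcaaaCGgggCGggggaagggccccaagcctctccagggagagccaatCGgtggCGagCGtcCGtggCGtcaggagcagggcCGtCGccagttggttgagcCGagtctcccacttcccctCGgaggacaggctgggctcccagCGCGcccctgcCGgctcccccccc
There are 22 CG dinucleotides in the Dlx1 sequence, 24 in that of Dlx2, 20 in that of Msx1 and 16 in that of Msx2. The median over 32851 RefSeq promoters was 6, with quartiles of 2 and 16. TAATT, the core of the site that Dlx and Msx homeodomains bind, was searched on both strands. It matched 3 times in the Msx2 sequence, where the stretch TAATTA counts once on each strand. It was in none of the other 3 sequences, against 25.0% of all promoters with at least 1 match. RefSeq starts Dlx1 1332 bases, and Msx2 294 bases, inside the gene as the authors' table draws it, so their printed stretches and measured windows need not coincide.

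Depth differed most for H3K4me3, where FC/FC replicate 1 had 3830045 mapped reads and the other libraries between 10360152 and 18035122. Over the 8 windows this library held 11 to 48 reads, and in it 1 read amounts to 0.261 RPM, the authors' unit of reads scaled to the mapped reads of a library. H3K27me3 had 10538531 to 14810135 mapped reads, the matched inputs 10967790 to 14405261 and the RNA libraries 38458010 to 45771857. The targeted gene, listed under its older symbol Wbp7, gave 131 and 185 RPM of RNA in FC/FC cells and 142 and 150 RPM in F/F cells. Reads summed over a whole gene do not check the deletion of part of it. Changes are log2 ratios of FC/FC over F/F from limma, fitted for each library type over all genes that passed a filter on low values. A call is a Benjamini-Hochberg adjusted p under 0.05 over all genes tested. Since those values were known when the 8 genes were chosen, what follows describes where they fall in the fits.

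H3K4me3 in both FC/FC libraries lay below that in both F/F libraries at 7 of the 8 genes, all but Msx2, although the change at Dlx1 and at Dlx6 turned positive under quantile normalization. That separation was common, since it held at 42.8% of the 15624 windows tested. Limma called 1 of the 8 lower, Dlx3, against 9.9% of all windows tested. Leaving out 1 library moved the change at Dlx3 between -1.96 and -0.58. Such a fit takes the spread of that genotype from the other one. The median change of the 8 was -1.0, against -0.26 for all windows. The 4126 windows with enough H3K27me3 to be tested for both marks had a median H3K4me3 change of -1.11, with quartiles of -1.52 and -0.77, and 7 of the 8 genes lay between -1.27 and -0.81. Relative to the median of all windows, those 7 changes ran from -1.01 to -0.55, and the change at Msx2 was 0.18. Under quantile normalization the changes were 0.093 at Dlx1, 0.039 at Dlx6 and 0.42 at Msx2. Input DNA in both FC/FC libraries also lay below that in both F/F libraries at Dlx1, Dlx3, Dlx4 and Dlx5. That held at 16.4% of the 15624 windows, and input was called at none of the 8 and at 0% of all windows. After division by input the H3K4me3 changes were -0.66 at Dlx1, -0.68 at Dlx2, -0.93 at Dlx3, -0.55 at Dlx4, -0.40 at Dlx5, -0.83 at Dlx6, -0.99 at Msx1 and -0.036 at Msx2. Of the 8, 0 were then called, against 320 of the 15624 windows called lower.

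H3K27me3 was higher in both FC/FC libraries than in both F/F libraries at 4 of the 8 genes, Dlx1 to Dlx4, a separation seen at 36.9% of the 4807 windows tested. None of the 8 was called (0 calls in limma and 0 in limma voom, with 3 of them higher and 0 lower at p under 0.05 before adjustment in limma), against 0.791% of all windows called higher and 12% higher at p under 0.05 before adjustment. The median change of the 8 was 0.68, against 0.45 for all windows, so changes are also given relative to 0.45 below. H3K4me3 below 0 together with H3K27me3 above 0 was found at 7 of the 8, and at 88.2% of the 4126 windows tested for both.

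**Figure D1:**
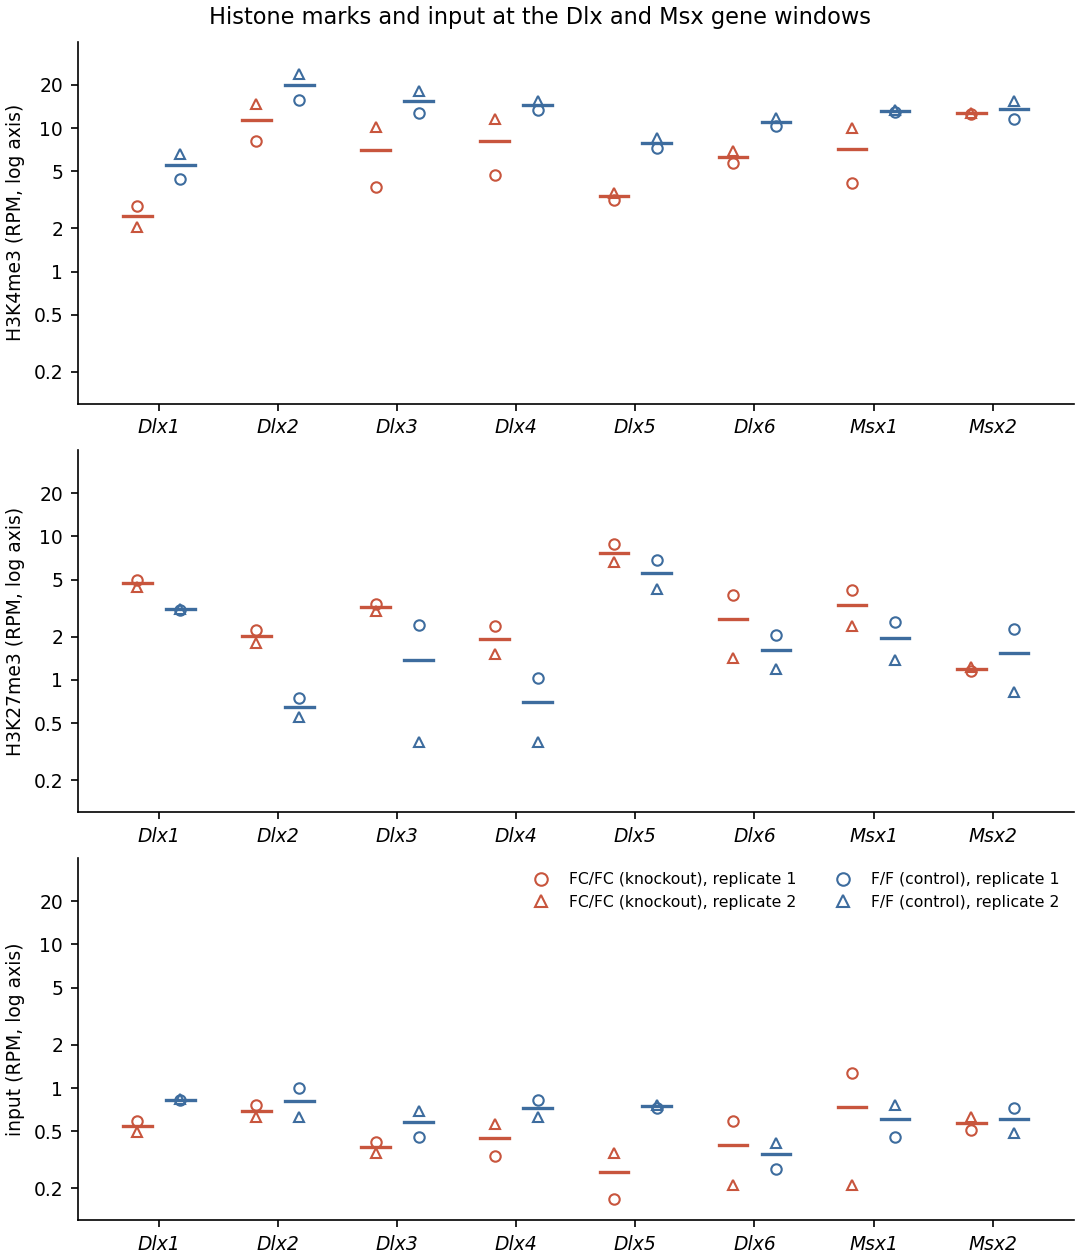
RPM (log axis) of H3K4me3, H3K27me3 and input at the windows of the 8 genes, with FC/FC libraries in red to the left of F/F libraries in blue, symbols for the replicate number and a bar at the mean of 2. As deposited, H3K4me3 points of FC/FC lie under those of F/F at every gene but Msx2, H3K27me3 points of FC/FC lie above those of F/F at Dlx1 to Dlx4, and input stays between 0.169 and 1.27 RPM.

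**Figure D2:**
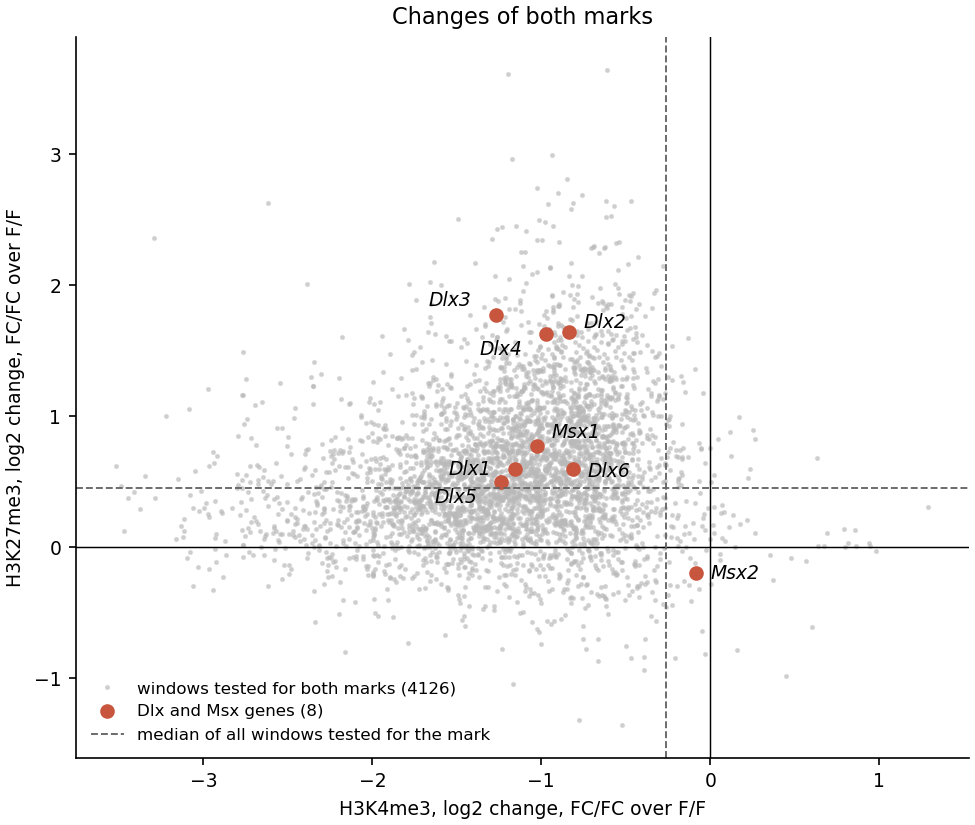
Log2 change of H3K4me3 (x axis) and of H3K27me3 (y axis), FC/FC over F/F, for the 4126 windows tested for both marks in grey and the 8 genes in red. Dashed lines are the medians of all windows tested for each mark, -0.26 and 0.45. The genes Dlx2, Dlx3 and Dlx4 stand together between 1.63 and 1.77 in H3K27me3, and Msx2 lies apart from the other 7 near 0 in both.

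The pair Dlx1 and Dlx2 drives the differentiation and migration of forebrain interneurons. H3K4me3 at Dlx1 was 2.87 and 2.05 RPM in FC/FC cells, against 4.44 and 6.60 RPM in F/F cells. At Dlx2 it was 8.09 and 14.7 RPM in FC/FC cells, against 15.8 and 24.0 RPM in F/F cells. Neither gene's groups overlapped, although the higher FC/FC value and the lower F/F value of Dlx2 were close. The changes were -1.16 (SE 0.60) at Dlx1 and -0.84 (SE 0.35) at Dlx2, and neither was called (limma adjusted p = 0.209 and 0.0976). At Dlx2 it was -0.40 without FC/FC replicate 1 and -1.27 without FC/FC replicate 2.

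H3K27me3 at Dlx1 was 4.93 and 4.46 RPM in FC/FC cells, against 3.08 and 3.11 RPM in F/F cells. Dlx2 held 2.23 and 1.8 RPM in FC/FC cells, against 0.753 and 0.549 RPM, or 11 and 6 reads, in F/F cells. The libraries of each genotype lay close together at both genes and the groups did not overlap. The change at Dlx2 was 1.64 (SE 0.63), or 1.19 above the median of all windows, and that at Dlx1 was 0.60 (SE 0.59), or 0.15 above it. Neither was called (limma adjusted p = 0.219 and 0.760).

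The windows of that pair were marked unequally. On the scale of log2(RPM + 0.5) over the same-numbered input of the same genotype, H3K4me3 at Dlx1 was below that at Dlx2 by 1.14 and 2.39 in FC/FC cells and by 1.54 and 2.03 in F/F cells. H3K27me3 at Dlx1 was above that at Dlx2 by 1.20 and 1.30 in FC/FC cells and by 1.70 and 1.54 in F/F cells. The Dlx1 window was thus the less H3K4me3-marked and the more H3K27me3-marked of the pair in every library of both genotypes. Its drawn start lies 1332 bases from the RefSeq start, so the window need not cover that promoter, while both starts of Dlx2 coincide. The part of this offset in the difference was not tested.

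RNA of Dlx1 was 3.74 and 4.27 RPM in FC/FC cells, against 2.81 and 2.68 RPM in F/F cells, with a change of 0.54 (SE 0.16) that was not called (limma adjusted p = 0.132). Dlx2 RNA was 0.721 and 0.749 RPM in FC/FC cells, against 0.494 and 0.383 RPM in F/F cells, and was under the filter of a mean log2 RPM of 0. FC/FC libraries were above F/F libraries for both genes. Dlx1as, an antisense RNA whose gene covers that of Dlx1, had 0.393 and 0.150 RPM in FC/FC cells, against 0.312 and 0.0901 RPM in F/F cells. The RNA libraries came from a directional kit, but the strand setting of the counts is not given, so reads of Dlx1 and Dlx1as cannot be told apart.

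The pair Dlx3 and Dlx4 includes the gene with calls in 2 kinds of library. Dlx3 is needed in the placenta and acts in epidermis, teeth and bone. H3K4me3 at Dlx3 was 3.92 and 10.1 RPM in FC/FC cells, against 12.7 and 18.1 RPM in F/F cells. The groups did not overlap, but the FC/FC libraries differed from each other more than the F/F libraries did. The change was -1.27 (SE 0.42), a 2.41-fold lower level, or 1.01 below the median of all windows, and it was called (limma adjusted p = 0.0351). The lower FC/FC value comes from 15 reads of the shallow library, and without it the change was -0.58 and the call was lost (limma adjusted p = 0.219). The change was -1.53 without F/F replicate 1 and -1.02 without F/F replicate 2. The call was also lost with no filter on low values, under median centring and over input (limma adjusted p = 0.0612, 0.0541 and 0.283). It held in limma voom (adjusted p = 0.0168).

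H3K4me3 at Dlx4 was 4.70 and 11.5 RPM in FC/FC cells, against 13.4 and 15.5 RPM in F/F cells. FC/FC replicate 1 was again the lower of its pair, and the groups did not overlap. The change was -0.97 (SE 0.41) and was not called (limma adjusted p = 0.104). It was -0.33 without FC/FC replicate 1.

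Dlx3 and Dlx4 had the largest H3K27me3 changes beside that of Dlx2. At Dlx3 the mark was 3.38 and 3.04 RPM in FC/FC cells, against 2.39 and 0.366 RPM in F/F cells. At Dlx4 it was 2.36 and 1.52 RPM in FC/FC cells, against 1.03 and 0.366 RPM in F/F cells. Each gene had only 4 reads in F/F replicate 2, while F/F replicate 1 was nearer to the FC/FC libraries. The changes were 1.77 (SE 0.55) at Dlx3 and 1.63 (SE 0.64) at Dlx4, or 1.32 and 1.18 above the median of all windows, and neither was called (limma adjusted p = 0.0945 and 0.239). Without F/F replicate 2 they were 0.42 and 0.88, and without F/F replicate 1 they were 3.13 and 2.37.

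RNA of Dlx3 was 6.51 and 7.47 RPM in FC/FC cells, against 3.90 and 4.33 RPM in F/F cells. Its replicates were closer to each other than to the other genotype. The change was 0.76 (SE 0.15), a 1.70-fold higher level, and was called (limma adjusted p = 0.0447), as it was in limma voom (adjusted p = 0.0484). The call was lost with no filter on low values, under median centring and under quantile normalization (limma adjusted p = 0.0794, 0.0554 and 0.117). It was also lost without F/F replicate 1 or 2, where the change was 0.69 and 0.84. Dlx3 was thus among the 35 of 12124 genes tested in both that were called lower in H3K4me3 and higher in RNA, a share of 0.289%.

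Dlx4 RNA was 3.15 and 2.80 RPM in FC/FC cells, against 1.69 and 1.74 RPM in F/F cells, with no overlap. The change was 0.79 (SE 0.18) and was not called (limma adjusted p = 0.0688). A730090H04Rik runs from within Dlx4 on the other strand and overlaps its 5′ part. It had 1.29 and 1.02 RPM in FC/FC cells, against 0.390 and 0.451 RPM in F/F cells, and was under the filter. Without the strand setting, RNA reads in that overlap cannot be told apart.

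Both promoters of the Dlx3 and Dlx4 pair carried much H3K4me3, and no constant order stood between them. On the input scale H3K4me3 at Dlx3 minus that at Dlx4 was -0.37 and 0.14 in FC/FC cells and 0.39 and 0.13 in F/F cells. H3K27me3 at Dlx3 minus that at Dlx4 was 0.30 and 1.13 in FC/FC cells and 1.39 and -0.086 in F/F cells. The sign of both differences turned between libraries.

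The pair Dlx5 and Dlx6 specifies the lower jaw and acts in bone and limb buds. H3K4me3 at Dlx5 was 3.13 and 3.56 RPM in FC/FC cells, against 7.24 and 8.59 RPM in F/F cells. Dlx6 had 5.74 and 6.94 RPM in FC/FC cells, against 10.4 and 11.8 RPM in F/F cells. Replicates of the same genotype were close at both genes, the shallow library included, and the groups did not overlap. The changes were -1.24 (SE 0.54) at Dlx5 and -0.81 (SE 0.45) at Dlx6, not called (limma adjusted p = 0.116 and 0.248). Leaving out any 1 library kept them between -1.36 and -1.12 at Dlx5 and between -0.95 and -0.67 at Dlx6. The change at Dlx5 was -0.095 under quantile normalization and -0.40 over input. At Dlx5 the input itself was lower, at 0.169 and 0.351 RPM in FC/FC cells from 2 and 5 reads, against 0.729 and 0.764 RPM in F/F cells.

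H3K27me3 at Dlx5 was the highest of the 8 genes over input in both genotypes, with 8.78 and 6.64 RPM in FC/FC cells, against 6.84 and 4.30 RPM in F/F cells. At Dlx6 it was 3.92 and 1.42 RPM in FC/FC cells, against 2.05 and 1.19 RPM in F/F cells. The groups overlapped at both genes. The changes were 0.49 (SE 0.59) at Dlx5 and 0.60 (SE 0.55) at Dlx6, or 0.043 and 0.14 above the median of all windows, and that at Dlx5 turned to -0.089 under median centring. Neither was called (limma adjusted p = 0.813 and 0.733).

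As at Dlx1 and Dlx2, the marks of this pair were unequal. On the input scale H3K4me3 at Dlx5 was below that at Dlx6 by 0.075 and 1.13 in FC/FC cells and by 1.17 and 0.89 in F/F cells. H3K27me3 at Dlx5 was above that at Dlx6 by 1.78 and 1.63 in FC/FC cells and by 0.86 and 1.04 in F/F cells. The order between the genes was the same in all 4 libraries of each mark, and the smallest difference was in the shallow library. Neither gene had RNA above a few reads, with 3 and 0 reads of Dlx5 in FC/FC cells against 1 and 0 in F/F cells, and 3 and 4 reads of Dlx6 in FC/FC cells against 1 in each F/F library. A floor of 3 reads in a library amounts to between 0.0655 and 0.0780 RPM, so a change of their RNA was not detectable at this depth.

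Msx1 acts in tooth and palate formation. H3K4me3 there was 4.18 and 10.1 RPM in FC/FC cells, against 13.0 and 13.4 RPM in F/F cells. The F/F libraries nearly coincided and the FC/FC libraries stood apart, with the shallow one lower. The change was -1.03 (SE 0.43) and was not called (limma adjusted p = 0.101), and it was -0.39 without FC/FC replicate 1. H3K27me3 was 4.25 and 2.37 RPM in FC/FC cells, against 2.53 and 1.37 RPM in F/F cells, which overlap, with a change of 0.77 (SE 0.56; limma adjusted p = 0.631). That change ran from 0.33 to 1.21 when 1 library was left out, and was 0.19 under median centring. RNA of Msx1 was 0.240 and 0.525 RPM in FC/FC cells, against 0.338 and 0.225 RPM in F/F cells, under the filter and with overlapping groups.

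Msx2, which acts in skull and hair follicle growth, stood apart from the other 7 genes in H3K4me3. H3K4me3 was 12.5 and 12.8 RPM in FC/FC cells, against 11.6 and 15.5 RPM in F/F cells. Both FC/FC libraries fell between the F/F libraries, and the shallow one lay next to the deeper one. The change was -0.083 (SE 0.37; limma adjusted p = 0.942). H3K27me3 at Msx2 was 1.15 and 1.23 RPM in FC/FC cells, against 2.26 and 0.824 RPM in F/F cells, so the groups overlapped, with a change of -0.20 (SE 0.60; limma adjusted p = 0.942). Whether the change at Msx2 differs from that at the other genes was not tested.

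RNA of Msx2 was above both F/F libraries in both FC/FC libraries, at 7.82 and 8.34 RPM, against 5.30 and 5.81 RPM in F/F cells. The change was 0.54 (SE 0.13), about the size of that of Dlx1, and was not called (limma adjusted p = 0.0769). Msx3, the third Msx gene of the mouse and not among the 8, had H3K4me3 of 9.40 and 13.1 RPM in FC/FC cells, against 18.5 and 20.2 RPM in F/F cells, with a change of -0.80 (SE 0.34; limma adjusted p = 0.113). H3K27me3 at Msx3 was 4.39 and 3.32 RPM in FC/FC cells, against 2.39 and 1.28 RPM in F/F cells. The groups did not overlap, a separation seen at 36.9% of windows tested. The change was 1.12 (SE 0.56) and was not called (limma adjusted p = 0.390). Msx3 RNA stayed at 6 reads or fewer in every library.

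Across the family, RNA was higher in both FC/FC libraries than in both F/F libraries for all 4 genes that passed the filter, Dlx1, Dlx3, Dlx4 and Msx2. Such a separation held for 36.2% of the 14100 genes tested. Limma called 1 of the 4 higher, Dlx3, against 3.01% of genes tested. Under median centring and quantile normalization 0 of the 4 were called, where 266 and 50 of all genes were called higher. Leaving out any 1 library kept the changes between 0.45 and 0.64 at Dlx1 and between 0.66 and 0.86 at Dlx3. They stayed between 0.71 and 0.88 at Dlx4 and between 0.47 and 0.61 at Msx2. The median change of the 4 was 0.65, against 0.065 for all genes. The other 4 genes, Dlx2, Dlx5, Dlx6 and Msx1, had too little RNA to be tested. An H3K4me3 change below 0 together with an RNA change above 0 was found at all 4 tested genes, and at 45.4% of the 12124 genes tested in both.

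Summed over the 8 genes, RNA was 22.3 and 24.3 RPM in FC/FC cells, against 14.6 and 15.2 RPM in F/F cells, a ratio of means of 1.56. In these cultures fewer or more cells of a type and less or more RNA per cell cannot be told apart. Dlx and Msx genes are also used by mesenchymal cells, and the feeders are fibroblasts. All 22 fibroblast feeder markers had reads in every RNA library, and their sum was 631 and 796 RPM in FC/FC cells, against 571 and 606 RPM in F/F cells, a ratio of means of 1.21. Of 20 feeder markers tested, 3 were called higher, against 3.01% of all genes tested. They were the collagen gene Col1a1, the receptor gene Pdgfra and the mesenchymal factor gene Twist1. Col1a1 was at 202 and 245 RPM in FC/FC cells, against 131 and 142 RPM in F/F cells. The part of feeder RNA in the Dlx and Msx values was not tested.

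The 15 germ cell markers summed to 2144 and 2373 RPM in FC/FC cells, against 2212 and 2160 RPM in F/F cells. Dazl alone gave 735 and 736 RPM in FC/FC cells, against 787 and 738 RPM in F/F cells. The median RNA change of the 14 germ cell markers tested was 0.40, against 0.30 for the 20 feeder markers and 0.065 for all genes. Of the 14 tested, 3 were called higher, against 3.01% of all genes tested. These were Gfra1, Nanos2 and Ret, which mark undifferentiated spermatogonia. Sertoli and Leydig markers summed to 25.1 and 29.7 RPM in FC/FC cells, against 24.6 and 24.1 RPM in F/F cells, with Hsd3b1 and Cyp17a1 listed at 0 in every library. Blood and macrophage markers summed to 7.93 and 6.60 RPM in FC/FC cells, against 5.80 and 5.97 RPM in F/F cells, and Ptprc, which marks white blood cells, had 0.0437 and 0.0999 RPM in FC/FC cells and no read in F/F cells.

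**Figure D3:**
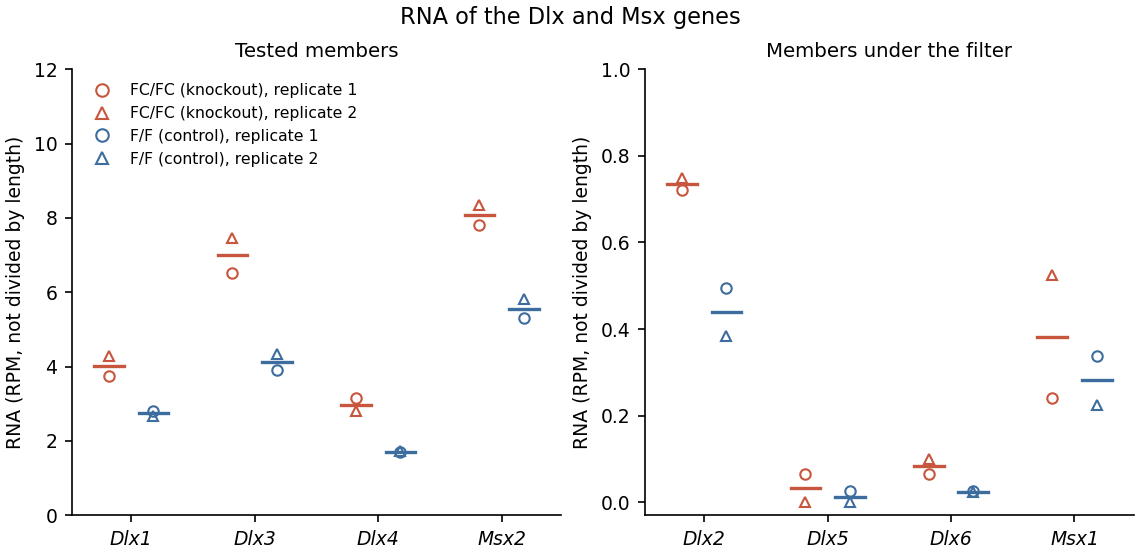
RNA in RPM, not divided by gene length, of the 4 tested genes (left) and of the 4 genes under the filter (right), with FC/FC libraries in red to the left of F/F libraries in blue, symbols for the replicate number and a bar at the mean of 2. All 4 tested genes lie higher in FC/FC cells, and Dlx5 and Dlx6 lie near 0 in both genotypes.

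Over input the 8 windows fell into 3 classes in FC/FC cells, with both marks, H3K4me3 alone or H3K27me3 alone, and into both marks or H3K4me3 alone in F/F cells. A gene was counted as carrying H3K4me3 where both libraries of a genotype had a log2(RPM + 0.5) at least 1.5 above that of the input with the same number, and H3K27me3 where both stood at least 1 above it. Both marks were carried by 4 of the 8 genes in FC/FC cells (Dlx2, Dlx3, Dlx5 and Dlx6) and by 2 in F/F cells (Dlx1 and Dlx5), against 7.42% of all windows in FC/FC cells and 7.68% in F/F cells. In FC/FC cells Dlx1 and Msx1 carried H3K27me3 only, and Dlx4 and Msx2 H3K4me3 only. In F/F cells the other 6 carried H3K4me3 only, and none of the 8 lacked both marks in either genotype. Several genes lay close to a limit. In FC/FC cells the lower H3K4me3 ratio was 1.36 at Dlx1 and 1.41 at Msx1, the lower H3K27me3 ratio was 0.93 at Dlx4, and Dlx2 passed with 1.02. At Msx1 the 1.41 was in FC/FC replicate 1, and the H3K4me3 ratio in FC/FC replicate 2 was 3.90. Input there was 1.27 RPM in FC/FC replicate 1 and 0.211 RPM in FC/FC replicate 2, from 15 and 3 reads. In F/F cells Dlx6 missed the H3K27me3 limit with 0.88. With a pseudocount of 0.25 RPM the counts of genes with both marks became 7 in FC/FC cells and 3 in F/F cells. Over the mean of both inputs they became 5 in FC/FC cells and 3 in F/F cells.

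**Figure D4:**
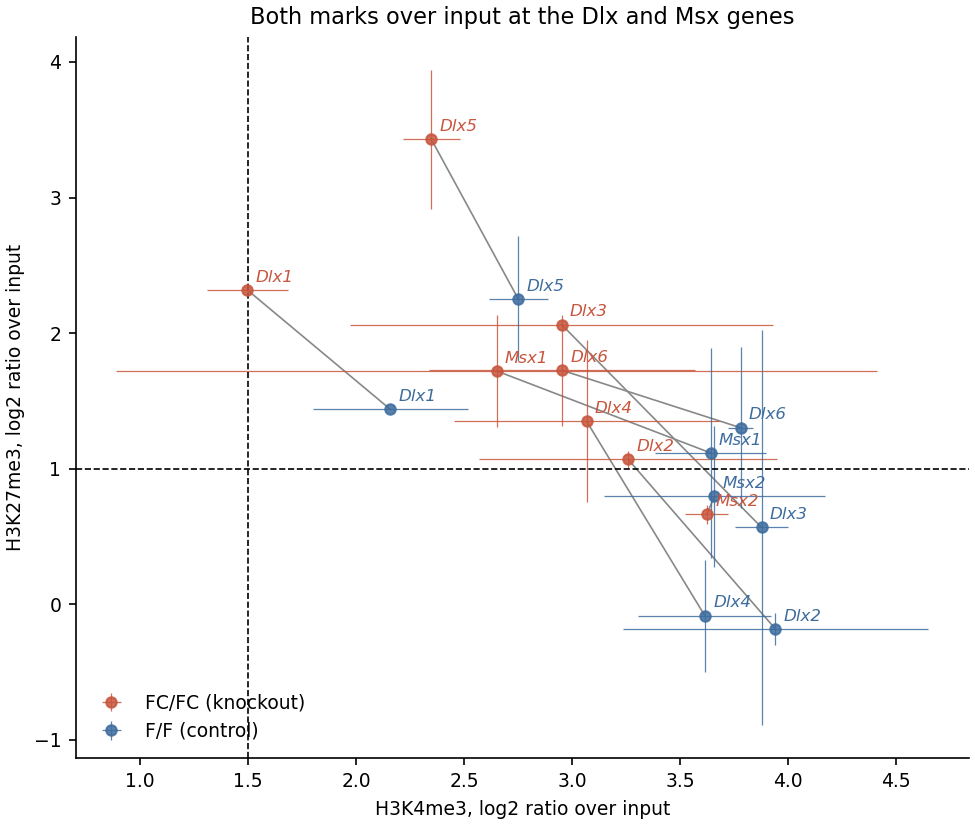
H3K4me3 (x axis) and H3K27me3 (y axis) as log2 ratios over input on the log2(RPM + 0.5) scale, mean and SD of 2 libraries, for FC/FC cells in red and F/F cells in blue, joined by a line for each gene. Dashed lines are the limits of 1.5 and 1. At the measured windows Dlx5 has the most H3K27me3 in both genotypes, Dlx1 the least H3K4me3, and the 2 points of Msx2 lie next to each other. The Dlx1 window need not cover its RefSeq promoter.

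H3K9me3, the mark of constitutive heterochromatin, was below input at all 8 genes in both F/F libraries. They held 1 to 7 reads of H3K9me3 each, against 13 to 43 in the inputs of that experiment. The log2 ratio to the mean of the inputs ran from -1.01 to -0.37, and its median over all windows was -0.66. At the antisense gene Dlx1as the ratio was -0.038 and 0.85. Input DNA at the 8 windows had 2 to 15 reads in a library, and the input comparison called 0 of the 8 and 0% of all windows in limma and in limma voom. At p under 0.05 before adjustment limma gave 1 of the 8 lower and 0 higher, among 396 windows lower and 345 higher. Input was lower without overlap at 4 of the 8 and higher without overlap at 0, against 16.4% of the 15624 windows lower without overlap. Its change was negative at 7 of the 8, with a median of -0.37, against -0.012 for all windows.

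Within the pairs, H3K27me3 reached beyond the starts of the Dlx genes themselves. Dlx1as, which starts 9.78 kb from Dlx1 and within the pair, held 10.4 and 7.12 RPM of H3K27me3 in FC/FC cells, against 9.58 and 7.87 RPM in F/F cells. H3K4me3 there was at most 0.721 RPM in any library. Over input its H3K27me3 ratio was 2.84 to 3.32 in FC/FC cells and 2.99 to 3.27 in F/F cells, above those of Dlx1 and Dlx2 in every library, and the groups overlapped.

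The antisense genes Dlx6as and Dlx6as1 around Dlx6 also held H3K27me3. Over input their mean ratios were 2.82 and 2.09 in FC/FC cells, under 3.43 at Dlx5. In F/F cells they were 2.84 and 3.01, above 2.25 at Dlx5. A730090H04Rik, which starts inside Dlx4, had mean ratios of 1.63 in FC/FC cells and 1.70 in F/F cells and counted as both marks in each genotype. Its start lies 25.0 kb from that of Dlx3, and the Dlx4 start 26.2 kb from it. Since the window size is not given, the windows of A730090H04Rik and Dlx4 may overlap. Dlx6as, which starts 1.82 kb from Dlx6, held 10.3 and 6.26 RPM of H3K27me3 in FC/FC cells, against 9.03 and 6.04 RPM in F/F cells. Dlx6as1 held 4.32 and 3.32 RPM in FC/FC cells, against 5.54 and 3.66 RPM in F/F cells. H3K27me3 changes at Dlx1as, Dlx6as1 and Dlx6os2, a further RNA gene beside Dlx6, were between -0.25 and -0.014, and that at Dlx6as was 0.12, all under the median of all windows. H3K4me3 at Dlx6as was 0.522 and 1.51 RPM in FC/FC cells, against 2.51 and 3.60 RPM in F/F cells, a change of -1.76 (SE 0.73; limma adjusted p = 0.101).

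The nearest genes on either side of the loci differed in their marks. Of these 10 genes, 5 carried H3K4me3 only in both genotypes (Metap1d, Itga3, Acn9, Stx18 and Sptlc1). The predicted genes Gm1631 beside Dlx2, Gm11515 beside Dlx4 and Gm5449 beside Msx2 carried neither mark, with H3K4me3 at most 1.31 RPM in FC/FC cells and at most 0.290 RPM in F/F cells. Cytl1, beside Msx1, had H3K4me3 of 0 and 0.362 RPM in FC/FC cells, against 0 and 0.166 RPM in F/F cells. Its H3K27me3 was 0.945 and 1.14 RPM in FC/FC cells, against 0.410 and 0.275 RPM in F/F cells, which counted as H3K27me3 only in FC/FC cells. Dlx6os2, 2.95 kb from Dlx6, held 8.10 and 5.12 RPM of H3K27me3 in FC/FC cells, against 8.76 and 5.04 RPM in F/F cells, and counted as H3K27me3 only in FC/FC cells and both marks in F/F cells. Metap1d, a methionine aminopeptidase gene 74.8 kb from Dlx1, had 13.1 and 14.1 RPM of H3K4me3 in FC/FC cells, against 15.0 and 19.0 RPM in F/F cells, a change of -0.31 (SE 0.34). Its H3K27me3 was at most 0.759 RPM. Acn9, a mitochondrial assembly factor gene 73.9 kb from Dlx5, had an H3K4me3 change of -0.33 (SE 0.32) and at most 0.824 RPM of H3K27me3. Itga3, an integrin gene 43.3 kb away, had 7.05 and 16.2 RPM of H3K4me3 in FC/FC cells, against 17.4 and 24.0 RPM in F/F cells, a change of -0.93 (SE 0.34) that was not called (limma adjusted p = 0.0576). Beside Msx2, the H3K4me3 change at the sphingolipid synthesis gene Sptlc1 was -0.055 (SE 0.26), and beside Msx1 that at the syntaxin gene Stx18 was -0.34 (SE 0.38).

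**Figure D5:**
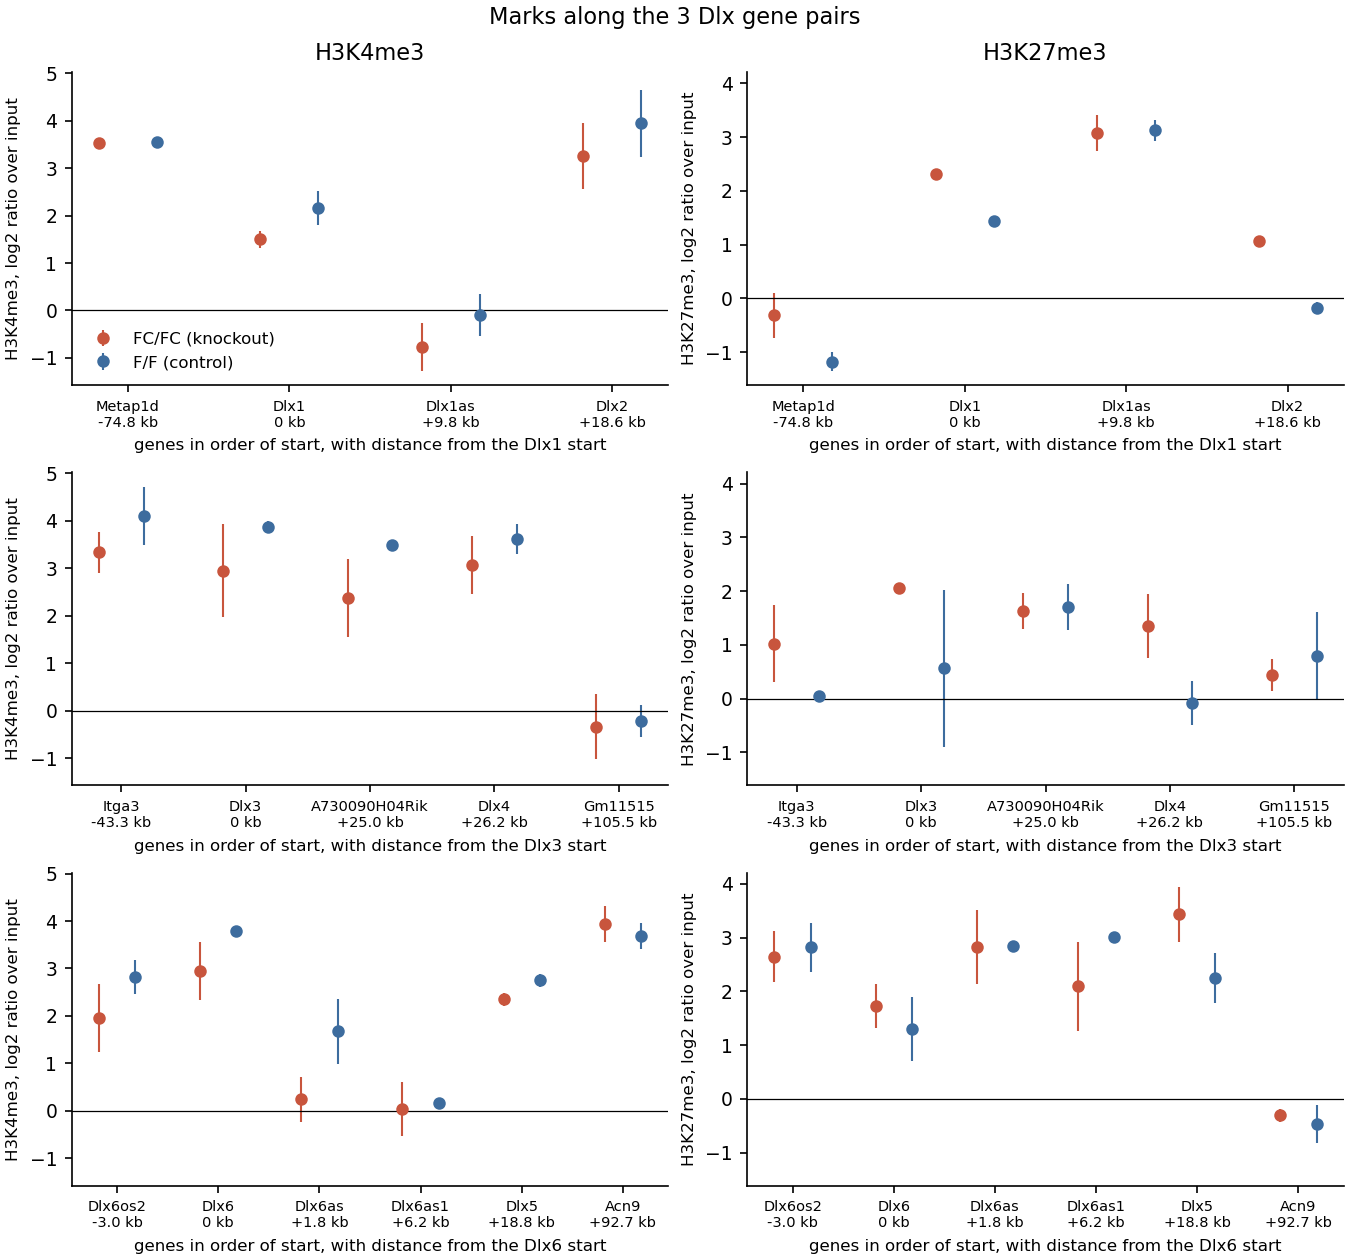
Log2 ratio over input (log2(RPM + 0.5) scale, mean and SD of 2 libraries) of H3K4me3 (left) and H3K27me3 (right) at gene starts along the 3 Dlx pairs, with FC/FC in red to the left of F/F in blue and the distance from Dlx1, Dlx3 or Dlx6 under each name. H3K27me3 is high at the antisense genes Dlx1as, Dlx6as and Dlx6as1, lower at A730090H04Rik, which starts inside Dlx4, and near or below input at Metap1d and Acn9.

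The 36 other homeobox genes of the NK-like class, to which Dlx and Msx belong, served for comparison. Of their 32 windows tested for H3K4me3, limma called 13 lower, against 9.9% of all windows. Their median change was -1.22, against -0.26 for all windows and -1.11 for windows tested for both marks. The smallest adjusted p belonged to Nkx1-2, with 2.61 and 4.40 RPM in FC/FC cells, against 12.4 and 14.7 RPM in F/F cells, and Nkx2-6, Dbx1 and Nkx3-2 followed. For H3K27me3 limma called 0 of the 35 windows tested, with 6 higher and 0 lower at p under 0.05 before adjustment, where 12% of all windows were higher, and a median change of 0.36, against 0.45 for all windows. In RNA, 1 of 7 tested was called higher, against 3.01% of all genes tested. It was the neural factor gene Barhl2, at 13.9 and 14.1 RPM in FC/FC cells, against 2.89 and 1.96 RPM in F/F cells.

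Bone morphogenetic protein (BMP) signals switch on Dlx and Msx genes in many embryonic tissues. Among 21 genes of BMP ligands, receptors, Smads, targets and antagonists, 4 of 20 tested were called lower in H3K4me3 in limma, against 9.9% of all windows, with a median change of -0.50. These were the ligand gene Bmp2, the antagonist genes Nog and Grem1, and Smad9. In RNA 2 of 15 were called higher, against 3.01% of all genes tested, with a median change of 0.065. They were Id3, a direct BMP target, at 6.69 and 6.40 RPM in FC/FC cells against 3.51 and 3.90 RPM in F/F cells, and the antagonist gene Chrd.

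Of 28 known targets and partners of Dlx and Msx proteins, 5 of 20 tested were called lower in H3K4me3 in limma, against 9.9% of all windows, with a median change of -0.93. They included Gad2, an enzyme gene of GABA synthesis that Dlx2 activates in forebrain, with 1.57 and 3.14 RPM in FC/FC cells against 6.47 and 11.3 RPM in F/F cells, and Pax9, Trp63 and Cited1. In RNA 1 of 12 was called higher, against 3.01% of all genes tested. It was the ectoderm factor gene Tfap2a, at 3.45 and 4.00 RPM in FC/FC cells against 2.00 and 1.71 RPM in F/F cells. For H3K27me3 limma called 0 of the 10 windows tested in the BMP list and 0 of the 20 in the target list, with 2 and 1 higher at p under 0.05 before adjustment, against 12% of all windows.

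The windows most like each gene across all 16 chromatin libraries were found by the root mean square difference in log2(RPM + 0.5). They were Cdh12 and Gykl1 for Dlx1, 9130008F23Rik and Itga3 for Dlx2, Satb1 and Lgi2 for Dlx3, Ccnd1 and Thbs1 for Dlx4, Fgf14 and Ucp1 for Dlx5, Ociad2 and Dscam for Dlx6, Ryr3 and Calhm2 for Msx1, and Kcnt1 and Fbxo2 for Msx2. The differences ran from 0.16 to 0.25. Itga3 was thus both near to Dlx3 on the chromosome and among the windows most like Dlx2.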

How the data were processed

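The authors deposited log2 RPM values, for 1 window per gene in 16 chromatin libraries and per gene in 4 RNA libraries, not divided by input or by gene length. CASAVA 1.8, Trim Galore 0.4.0, Bowtie 1.1.1, TopHat2 2.0.14 and build mm10 are named in the submitters' processing notes, which give no roles, and the counting tool is not given in the sources used here. Values were whole multiples of a step within each library (100.0% within 0.1 reads), which gave reads and depth, with genes without a read at 0.9 steps, here set to 0. Each library type was fitted apart on the deposited log2 values with limma 3.58.1 in R 4.3.3 (mean-variance trend, two-sided), 2 against 2 libraries, over windows averaging 1 RPM or more and genes whose log2 RPM averaged 0 or more. Input used the H3K4me3 windows. The scripts were tested on simulated data.

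Fold changes on the deposited scale of genes with few reads depend on the value given to 0 reads. Alternatives were another pseudocount, scaling, filter, limma voom, a replicate block, division by input and leaving out each library. With 2 libraries a group, p-values rest on the spread between libraries, described as duplicate lines. Limma shares that spread over all genes tested, in the chromatin fits almost wholly, so an SE need not follow a gene's own duplicates. The genes, the lists and the tests were chosen with earlier results of these data known. Named genes were the 8, Kmt2b, the nearest gene on each side of each locus, RNA genes at the loci, up to 4 called members of each list, and the 2 most alike windows.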

Additional observations from a re-analysis of the deposited data

How the results depend on the processing

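For H3K4me3, the 1546 windows called lower became 1010 with no filter on low values, 595 under quantile normalization, 2587 with limma voom and 320 over input, and 0 to 6889 when 1 library was left out. Of the 8 genes, 4 were called with limma voom, 0 with no filter, under median centring, under quantile normalization and over input, and 0 to 6 when 1 library was left out. For H3K27me3, the 38 windows called higher became 81 under median centring, 3 under quantile normalization, 4 over input and 0 to 152 without 1 library, with 0 to 2 of the 8 genes among them. For RNA, the 425 genes called higher became 210 with no filter, 266 under median centring, 50 under quantile normalization and 227 to 5257 without 1 library. The 44 called lower became 114 under median centring, 20 under quantile normalization and 28 to 3095 without 1 library. Of the 4 tested Dlx and Msx genes, 0 were called with no filter, under median centring and under quantile normalization, and 0 to 4 without 1 library. Fits without a library take that genotype's spread from the other one. Directions turned for H3K4me3 at Dlx1 (0.093), Dlx6 (0.039) and Msx2 (0.42) under quantile normalization, at Msx2 under median centring (0.21), and at Msx2 without 1 library (-0.29 to 0.13). For H3K27me3 they turned at Dlx5 under median centring (-0.089), and without 1 library at Dlx6 (-0.13 to 1.33) and at Msx2 (-0.92 to 0.53). Genes carrying both marks numbered 2 in FC/FC and 1 in F/F cells with limits of 2 and 1.5, and 7 in FC/FC cells with a pseudocount of 0.25 RPM. The cause was not tested.

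The replicate block raised the counts to 4037 windows lower in H3K4me3, 1206 higher in H3K27me3, and 195 genes lower and 1292 higher in RNA, with 5, 3 and 3 of the Dlx and Msx genes called. Deviations of same-numbered libraries correlated at 0.15, 0.06 and 0.09 for these types. Labels do not say that a number marks a line, so the libraries share only a number. Few reads limit H3K27me3, with 4 at Dlx3 and Dlx4 in F/F replicate 2.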
